A study of Mus musculus with 2 samples.

Results

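The genes of the IL-12, IL-18 and interferon gamma axis were followed in Bcl11b-deficient thymocytes. They are the interferon gamma gene Ifng, the receptor chains Il12rb1, Il12rb2, Il18r1, Il18rap, Ifngr1 and Ifngr2, the kinases Jak2 and Tyk2, and the transcription factor Stat4. They were taken as every probe whose gene name in the array files, or whose current symbol or synonym in the RefSeq gene table, is one of these 10 genes. That gave 14 probes on 23 spots of each array, out of 41174 probes for 27591 genes, and 8 of the 10 genes had a probe that passed the filter on dim probes. RNA of CD4+CD8+ double-positive (DP) thymocytes was hybridised to 2 mouse 2-colour oligonucleotide arrays. The deficient sample, from Bcl11bF/FCD4Cre/Tcra-/- mice, carried the red dye Cy5, and the control, from TCRa-/- mice, carried the green dye Cy3, on both arrays. Bcl11b encodes a zinc finger protein that regulates transcription in T lineage cells, and its floxed alleles are cut by Cre driven from Cd4 control sequences, which act from the DP stage on. Both genotypes lack Tcra, so neither forms an alpha beta T cell receptor and the DP cells have not undergone selection.

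The control's label names neither Cre nor floxed Bcl11b, so an effect of Cre itself cannot be told apart from that of the deletion. A bias that follows dye cannot be told apart from genotype either, because no array has the reverse orientation. The age of the mice, the number of mice behind a sample, the way DP cells were isolated and the deleted part of Bcl11b are not given in the sources used here. The labels call the arrays biological replicates 1 and 2 without naming separate mice. The p-values therefore rest on the spread between these 2 arrays, moderated by that of all probes. The share of non-control spots well above background was 50.5% to 56.5% for the deficient samples and 50.6% to 51.7% for the controls. All 12 markers of DP thymocytes looked up, among them Cd4, Cd8a, Rag1 and Ptcra, passed the filter. A Bcl11b probe had log2 ratios of -1.37 and -2.16 on the 2 arrays and another had -1.40 and -0.28. The positions of both relative to the deleted part are unknown, so their signals are a limited check of the deletion.

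IL-12 is sensed by a receptor of Il12rb1 and Il12rb2, which work through the kinases Tyk2 and Jak2 and the transcription factor Stat4. IL-18 is bound by Il18r1 and signals together with the accessory chain Il18rap through the adaptor Myd88. In NK cells and type 1 T helper cells both cytokines drive transcription of Ifng, whose product acts on cells that carry Ifngr1 and Ifngr2, through the kinases Jak1 and Jak2. DP thymocytes are not regarded as producers of interferon gamma, and the axis is known chiefly from mature and innate-like lymphocytes.

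The sequence before the start site is shown for the 3 genes with a ratio of at least 2-fold on both arrays, Il18r1, Il12rb2 and Ifngr1, and for Ifng, the gene that IL-12 and IL-18 act on. The sequences are those of RefSeq on build GRCm38.p6, 5′ to 3′ on the gene's strand, and each stops at the first base of the gene's annotated range. Capitals mark a match to the STAT motif TTCNNNGAA.
Il18r1, chr1:40465302-40465551, plus strand: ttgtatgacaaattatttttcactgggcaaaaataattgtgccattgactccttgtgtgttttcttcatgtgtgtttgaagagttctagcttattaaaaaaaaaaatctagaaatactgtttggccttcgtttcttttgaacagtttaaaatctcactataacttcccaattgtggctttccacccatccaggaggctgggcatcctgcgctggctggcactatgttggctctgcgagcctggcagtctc
Il12rb2, chr6:67376294-67376438, minus strand: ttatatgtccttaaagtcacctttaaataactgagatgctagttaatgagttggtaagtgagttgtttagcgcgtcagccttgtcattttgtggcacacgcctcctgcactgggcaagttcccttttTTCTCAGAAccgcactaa
Ifngr1, chr10:19591699-19591948, plus strand: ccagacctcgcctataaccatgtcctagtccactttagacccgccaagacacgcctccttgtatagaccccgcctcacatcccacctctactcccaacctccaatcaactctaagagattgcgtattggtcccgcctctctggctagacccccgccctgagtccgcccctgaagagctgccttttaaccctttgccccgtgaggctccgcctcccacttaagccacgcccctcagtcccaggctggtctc
Ifng, chr10:118440796-118441045, plus strand: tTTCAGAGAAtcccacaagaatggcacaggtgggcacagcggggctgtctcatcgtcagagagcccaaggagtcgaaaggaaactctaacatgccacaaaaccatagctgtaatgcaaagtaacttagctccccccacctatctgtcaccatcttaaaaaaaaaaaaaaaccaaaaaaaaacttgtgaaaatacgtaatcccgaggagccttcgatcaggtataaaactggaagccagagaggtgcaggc

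RefSeq starts were found for 9 of the 10 genes, with 12 promoters among them, while Il12rb1 was not matched. In the 250 bases before each start, both strands were searched for the STAT motif TTCNNNGAA, the T-box motif AGGTGTGA, the RUNX motif TGTGGT and TGACCA, the motif of the Bcl11b paralogue BCL11A. TGACCA read on the other strand shares the letters TGGT with the RUNX motif, so those can overlap, and no matches overlapped here. Over all 32851 promoters of the table they occurred in 7.02%, 1.12%, 14% and 11.4%. Il12rb2 held 1 STAT match, TTCTCAGAA, with its first base at -123 from a start that lies inside the gene's annotated range, past the end of the stretch shown. Ifng held TTCAGAGAA at -249. A start of Il18r1 other than the one shown held both TTCTGGGAA at -219 and TTCCCAGAA at -152. Tyk2 held TGACCA at -63, and no other promoter of the genes held a match. The arrays carry no measurement of binding at these letters.

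At the level of RNA, Ifng and the receptor chain Il18rap were not detected in either genotype. Ifngr1 and Il12rb1 were read above background in all 4 samples, with higher signals in the deficient samples on both arrays. Il12rb2 and Il18r1 were above background in both deficient samples, but in 0 and 1 of the controls, respectively. Ifngr2 and Jak2 had ratios below 0, and Stat4 and Tyk2 lay slightly above 0. Ratios below are log2 of deficient over control after background correction and loess normalisation, as the mean of 2 arrays ± SE from limma. Signals are Agilent's processed signals, in scanner units after its own background and dye correction. They are compared between genotypes for 1 probe, or for cell markers as sums over a list, in which bright probes weigh most. The SE rests on 1 residual degree of freedom plus a prior fitted over all probes, and limma's adjusted p called none of the 8 genes at 0.05, nor any of the 21538 probes tested (0%). All 8 had an unadjusted p under 0.05, as did 27.0% of all probes tested.

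**Figure D1:**
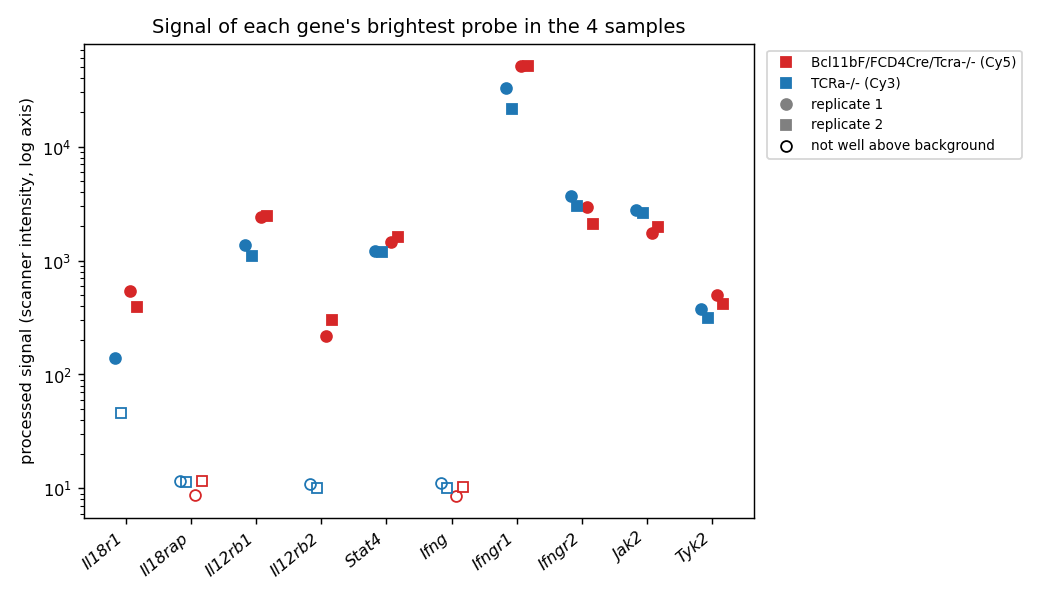
Processed signal of each gene's brightest probe in the deficient and control channel of both arrays, on a log axis in scanner units, with open symbols where the signal was not well above background. Ifng and Il18rap were not well above background in any channel, Il12rb2 was so in the deficient channel only, and Ifngr1 was bright in both.

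Ifng, the cytokine of the axis, was read by a probe at chr10:117848551-117848610 with 10 spots per array and by another at chr10:117848778-117848837 with 1 spot. Positions of probes are those of build mm8 as the array files give them, and their exons and UTRs were not used here. The uncorrected signals of the 10-spot probe ranged from 756 to 815 with a median of 783 in the deficient sample of replicate 1, and from 731 to 971 with a median of 796 in that of replicate 2. In the control sample they ranged from 568 to 619 with a median of 582, and from 558 to 675 with a median of 582. The brightest of 153 negative control spots read 970.3 and 1113 on the Cy5 side and 750.4 and 770.0 on the Cy3 side. On replicate 2 the deficient channel's top Ifng spot, at 971, therefore stayed under its own array's 1113. The spots at 731 and 971 were flagged as outliers and left out of the normalised ratios, but their signals are counted here. Of the 44 Ifng signals, all 44 were at or below the brightest negative control of the same array and channel, and 0 of the spots was well above background. Ifng RNA was not detectable at this sensitivity in deficient or control DP cells, and no fold is given.

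Il12rb2, the signalling chain of the IL-12 receptor that takes up Stat4, was read by 1 probe at chr6:67221946-67222005. Its signal was 216 and 304 in the deficient sample of replicates 1 and 2. In the control it was 11.0 and 10.2, values that Feature Extraction sets for spots too dim to read, and the uncorrected control signals of 700.2 and 648 did not exceed the brightest negative controls. Il12rb2 was therefore detected in both deficient samples and in neither control. Set against the dimmest signals that counted as well above background, it was at least 2.23-fold higher in the deficient sample, with a limma adjusted p of 0.0922 for the ratio of 1.69 ± 0.18. The ratio was 1.39 on replicate 1 and 2.00 on replicate 2. It depends on the offset added to the control's background and is no measure of the fold. Since the gene passed the filter only through the deficient channel, the filter favoured its direction, which is no support in itself.

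Il12rb1, the chain shared by the receptors of IL-12 and IL-23, was above background in every sample. Its probe at chr8:73750279-73750338 had signals of 2396 and 2481 in the deficient sample and 1378 and 1106 in the control. The ratio was 0.76 and 1.13 on the 2 arrays, with a mean of 0.94 ± 0.12 and a limma adjusted p of 0.0974.

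Il18r1, the chain that binds IL-18, was read at chr1:40445242-40445301. Its signal was 537 and 392 in the deficient sample and 140 and 46.0 in the control, and the control of replicate 2 was not well above background. Replicate 1 gave a ratio of 1.30 and replicate 2 one of 1.44, the mean being 1.37 ± 0.08. Its limma adjusted p was 0.0842, and like Il12rb2 it passed the filter only through the deficient channel. From the processed signals, which subtract more background, the ratio was 1.94 and 3.09 with a mean of 2.52, so its size depends on the background taken from the dim control.

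Il18rap, the accessory chain that IL-18 needs for signalling, was not detected. Its probes at chr1:40493430-40493489 and chr1:40470431-40470490 gave uncorrected signals of 894 and 951, and of 697 and 731, in the deficient sample. In the control they gave 615 and 618, and 556 and 545. All 8 signals were at or below the brightest negative control of their array and channel. The pair of chains needed for the IL-18 response was thus read with Il18r1 above background in both deficient samples and Il18rap above background in none.

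Ifngr1, the chain that binds interferon gamma, was among the brightest probes of the arrays. The software flagged its readings as scaled up from a scan at low gain, in both channels of both arrays. No other probe of the axis carried that flag. The effect of this scaling on the signals and ratio of Ifngr1 was not tested. At chr10:19299533-19299592 its signal was 51516 and 50898 in the deficient sample and 32788 and 21445 in the control. Both deficient samples lay near the same level, while the controls were farther apart from each other. The ratio was 1.03 and 1.49, with a mean of 1.26 ± 0.14 and a limma adjusted p of 0.0936. The 401 probes nearest to it in brightness, itself included, had medians of 0.21 and 0.25 on the 2 arrays, and the mean was 0.94 when each ratio was centred on such neighbours. The mean was 0.95 from the processed signals and 1.90 when arrays were centred on their median in place of loess.

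Ifngr2, the signalling partner of Ifngr1, went the other way. Its brighter probe at chr16:91452596-91452655 had signals of 2943 and 2086 in the deficient sample and 3690 and 3033 in the control. Its deficient signal was below the control on each array, at ratios of -0.31 and -0.47 that averaged -0.39 ± 0.08 (limma adjusted p = 0.12). A dimmer probe at chr16:91450606-91451758, whose span on the genome is longer than that of the other probes, had ratios of -0.15 and -0.44. That probe passed the filter only through the control channel, so the filter favoured its direction, which is no support in itself. By the brighter Ifngr2 probe, the chains of the interferon gamma receptor had ratios of opposite sign on both arrays. The difference between them was not tested.

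Tyk2, the kinase held by Il12rb1, and Jak2, the kinase held by Il12rb2 and by Ifngr2, also had ratios of opposite sign. The Tyk2 probe at chr9:20855279-20855338 had signals of 502 and 412 in the deficient sample and 372 and 315 in the control. Its ratio of 0.37 and 0.35 varied little between arrays and averaged 0.36 ± 0.07 (limma adjusted p = 0.113). The Jak2 probe at chr19:29377868-29377927 had signals of 1760 and 1964 in the deficient sample and 2801 and 2614 in the control. Its ratios of -0.62 and -0.36 averaged -0.49 ± 0.10 (limma adjusted p = 0.117). Another Jak2 probe, at chr19:29354718-29354777, was not well above background in any sample and gave ratios of 0.10 and -0.16.

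Stat4, the transcription factor that carries the IL-12 signal to the nucleus, was well expressed in both genotypes. At chr1:52051503-52051562 its signal was 1454 and 1594 in the deficient sample and 1205 and 1184 in the control. The ratio was small, at 0.26 and 0.40, with a mean of 0.33 ± 0.08 and a limma adjusted p of 0.131. Its size was near that of Tyk2.

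**Figure D2:**
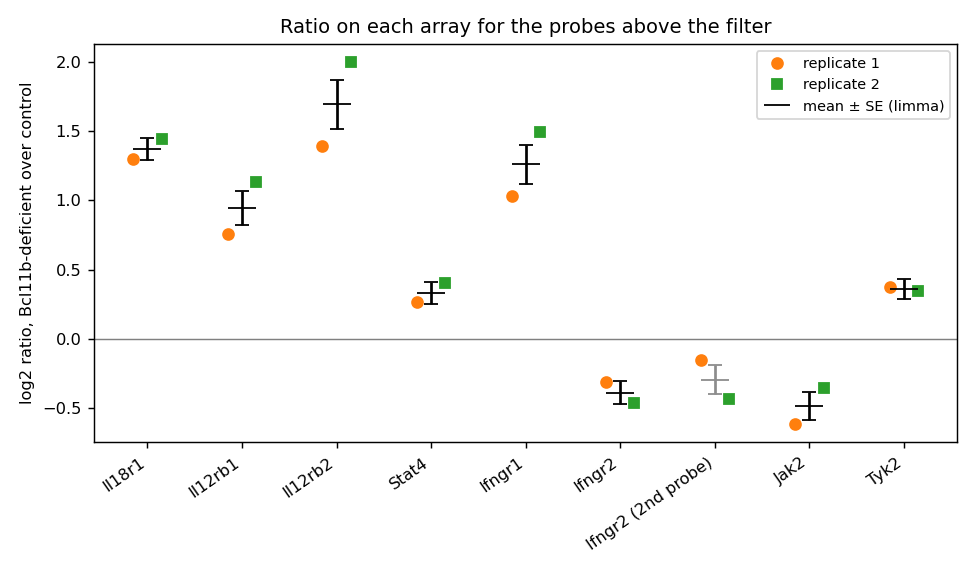
Log2 ratio of deficient over control on each array for the 9 probes that passed the filter, with the mean and SE from limma as bars. Il12rb2, Il18r1 and Ifngr1 lie above 1 on both arrays and Jak2 and both Ifngr2 probes lie below 0. The dimmer Ifngr2 probe passed the filter only through the control channel. The bar of Il12rb2 is no measure of its fold because its control was not detected.

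Of the 8 genes with a value, 6 had a ratio above 0 on both arrays, as did 36.6% of all probes tested, and 2 a ratio below 0 on both, as did 36.9%. At least 2-fold higher on both arrays were 3 of 8, beside 0.673% of probes, and at least 2-fold lower were 0, beside 0.218%. Nothing is read from these counts, because Il12rb2 and Il18r1 passed the filter only through the deficient channel, where they are high. Among the 6 genes read above background in all 4 samples, 4 had ratios above 0 on both arrays and 2 below, and Ifngr1 was the one at least 2-fold higher. Of the 19274 probes so read, 34.9% were above and 36.9% below 0, and 0.555% at least 2-fold higher. Ranked by mean ratio among 21538 probes, Ifngr1 stood at 124 from the highest and Il12rb1 at 271, while Tyk2 stood at 1966 and Stat4 at 2247, with 9.12% and 10.4% of probes above them. Il12rb2 and Il18r1 are given no rank, as the size of their ratios depends on the dim control. From the lowest, Jak2 stood at 593 and Ifngr2 at 1059. The differences among the leading genes were not tested.

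**Figure D3:**
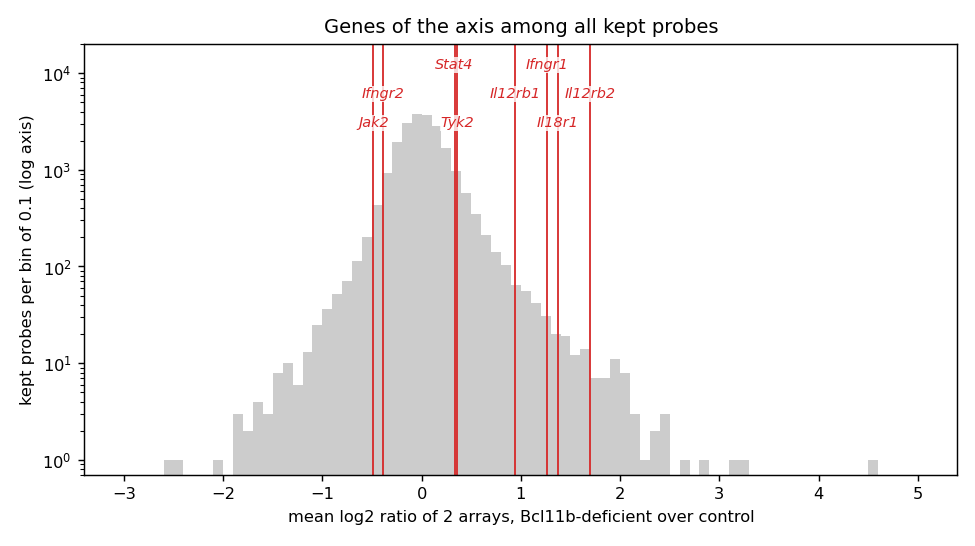
Number of kept probes by mean log2 ratio of deficient over control, on a log count axis, with the lead probes of the 8 genes marked. Il12rb2, Il18r1, Ifngr1 and Il12rb1 stand in the upper tail, the first pair against dim controls, and Stat4, Tyk2, Jak2 and Ifngr2 lie nearer the middle.

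Whether the genes were called depended on how the arrays were modelled, while their direction did not. When each channel was fitted on its own with the array as a block, limma called Il12rb2 (adjusted p = 0.0262), Ifngr1 (0.0294), Il18r1 (0.0294) and Il12rb1 (0.0311) as higher, and 3.21% of all probes were called higher and 2.51% lower. Centring on the median in place of loess called these 4 genes as well, where 3.94% of probes were called higher and the median of all probes moved to 0.12. Background taken from the negative controls called Il12rb2 and Il18r1 (0.938% of probes called higher), and the processed signals called Il12rb2 (0.111%). The calls of Il12rb2 and Il18r1 support no difference in themselves, since both genes passed the filter only through the deficient channel and the control signals of Il12rb2 are substitute values. Stat4, Tyk2, Jak2 and Ifngr2 were called in none of these settings, and no ratio of the 8 genes changed sign. Under median centring Ifngr2 lay at -0.13 and Jak2 at -0.26, nearer 0 than after loess, and Stat4 at 0.53.

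**Figure D4:**
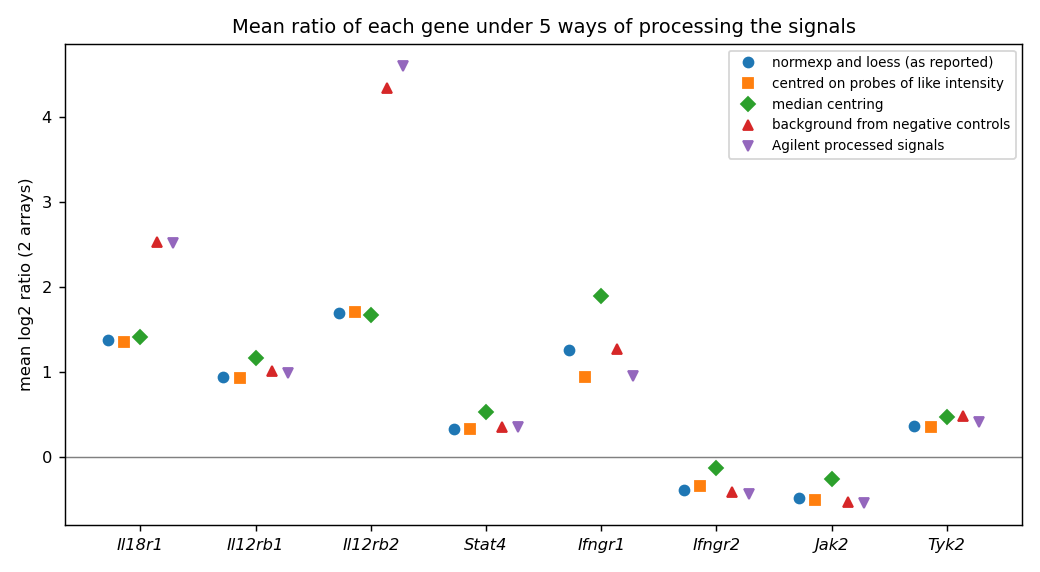
Mean log2 ratio of 2 arrays for the 8 genes under 5 ways of processing the signals, 1 symbol per way. Each gene keeps its sign in all 5, and Il12rb2 and Il18r1 spread most, both with dim controls, with Ifngr1 between 0.94 and 1.90.

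The rest of the pathway was read from 5 lists, and limma called 0 genes of any list. Over all probes tested, 36.6% were above and 36.9% below 0 on both arrays and 27.0% had an unadjusted p under 0.05. The lists count 1 probe per gene. Of all 14920 genes so counted, 5436 were above and 5740 below 0 on both arrays. An unadjusted p under 0.05 was found for 2241 genes with a mean above 0 and 2094 with a mean below. These are the numbers to set beside the counts of each list. Of its ligands and the IL-18 binding protein, 5 of 10 genes passed the filter, with 2 above and 2 below 0 on both arrays and 1 at an unadjusted p under 0.05. The median was -0.01, that of all 14920 genes being 0.00. Both IL-12 subunits, Il12a and Il12b, were not kept, nor were Il23a, Il1b and Il33. Il18 had a ratio of 0.16 and Il15 of -0.03, while Il18bp, the secreted decoy of IL-18, had 0.45 ± 0.07. Il27, the p28 subunit of IL-27, had a ratio of -0.04.

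Among the signal transducers of the receptors, 20 of 23 passed the filter, 8 above and 4 below 0 on both arrays, with 5 at an unadjusted p under 0.05 and a median of 0.08. The fit of separate channels called 1 higher and 1 lower, beside 3.21% and 2.51% of all probes. Map2k6, which activates p38 kinases, had a ratio of -0.46 ± 0.07 and was the one called lower in that fit (adjusted p = 0.0439). Map3k4, a kinase of the p38 cascade, had ratios of 0.23 and 0.82, and Irak4, the kinase that acts behind Myd88, had a mean of 0.49 with a control above background on 1 array. Il1rap, the accessory chain of IL-1 and IL-33 receptors, had -0.23.

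Transcription factors that act on Ifng had the highest median of the 5 lists, at 0.42. Of 15 genes, 11 passed the filter, 7 were above 0 on both arrays and 0 below, and 6 had an unadjusted p under 0.05. Separate channels called 3 higher, beside 3.21% of all probes. Runx3, a factor of the CD8 and NK lineages, had ratios of 0.83 and 1.34, with a control above background on 1 array. Irf1, an activator that interferon gamma also induces, had 0.75 and 1.07, a mean of 0.91 ± 0.11. In the fit of separate channels the adjusted p was 0.0497 for Runx3 and 0.0363 for Irf1. The call of Runx3 supports no difference in itself, since it passed the filter only through the deficient channel. Ets1 and Irf2 had ratios of opposite sign on the 2 arrays. Tbx21, the T-box factor that drives the type 1 programme, had 0.33 and 0.10, and it is named here after its values were seen.

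Genes that interferon gamma induces had ratios in both directions, more of them above 0 than below. Of 28 on the array, 25 passed the filter, with 15 above and 5 below 0 on both arrays and a median of 0.19. Of the 11 at an unadjusted limma p under 0.05, 9 had a mean above 0 and 2 below. Icam1, an adhesion molecule, had 0.50 and 1.25 on the 2 arrays, whereas Gbp4 and Igtp, which encode interferon-inducible GTPases, had means of -0.57 and -0.35. The inducible chemokine Cxcl9 and the enzymes Ido1 and Nos2 were not kept. Separate channels called 3 genes higher and 1 lower, beside 3.21% and 2.51% of all probes. The gene called lower was Gbp4 (adjusted p = 0.0459). Igtp had a ratio of 0.17 under median centring, which turned its sign.

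Inhibitors of the pathway had 14 of 14 genes above the filter, 7 above and 3 below 0 on both arrays, and a median of 0.08, with 6 at an unadjusted p under 0.05. Socs3, which blocks receptors of the gp130 family and the IL-12 receptor, was the one gene of all 5 lists that was at least 2-fold lower on both arrays. Its signal was 5252 and 3532 in the deficient sample and 10435 and 7741 in the control, and its ratio was -1.01 and -1.11, a mean of -1.06 ± 0.07. Under median centring Socs3 lay at -0.68, Gbp4 at -0.38, Map2k6 at -0.27 and Map3k4 at 0.81. Socs5, another family member, stood at 0.77 ± 0.09, and the adaptor Sh2b3 at 0.61. In the fit of separate channels the adjusted p was 0.0441 for Socs3 and 0.0294 for Socs5. Tnfaip3, an inhibitor of NF-kappa B signalling, had a ratio of -0.40, with a separate-channel adjusted p of 0.0456, and lay at 0.04 under median centring.

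**Figure D5:**
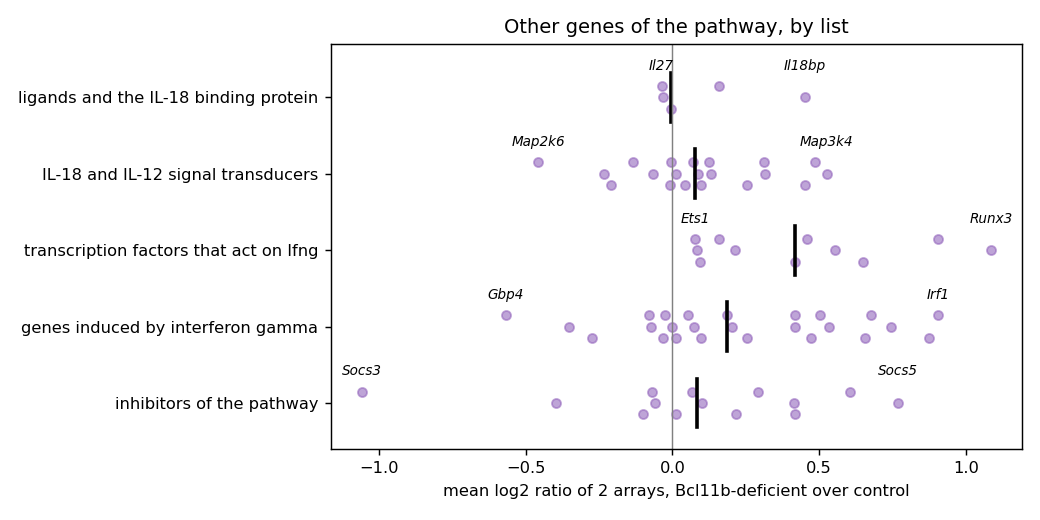
Mean log2 ratio of 2 arrays for each kept gene of the 5 pathway lists, 1 point per gene, with a black bar at the list's median and the outermost genes named. The factors that act on Ifng have the highest median, at 0.42, and Socs3 lies farthest below 0, at -1.06.

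Il12rb2, Il18r1, Ifngr1 and Il12rb1 are also borne by NK and innate-like lymphocytes and by maturing T cells, so markers of those cells are given beside them. Of 14 NK or innate-like markers on the array, 11 passed the filter and 9 were above 0 on both arrays, with a median of 0.81. Over all probes tested, 36.6% were above and 36.9% below 0 on both arrays. Klrk1 and Cd160, among the 9, were well above background in neither control, so the filter favoured their direction, which is no support in itself. Prf1, the 1 marker below 0 on both arrays, had a mean of -0.21, and Eomes had 0.09. The summed processed signal of the 11 markers was 13161 to 14531 in the deficient samples and 5821 to 8006 in the controls. Ncr1, Klre1 and Gzmb were not kept in either genotype. Of 8 markers of mature single-positive thymocytes 7 passed, 5 above 0 on both arrays, with a median of 0.80 and sums of 65521 to 86468 against 43579 to 50240. In these sums Klf2 alone gave 50406 and 30408 against 34133 and 30826. DP markers were 9 below and 3 above 0 on both arrays, with a median of -0.24 after loess and of 0.08 under median centring, which turned its sign. Their sums were 256466 to 295609 against 269920 to 306517. In these sums Dntt, 1 of the 3 above 0, gave 101833 and 87490 against 45474 and 44308.

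Macrophage markers, which also go with Ifngr1, had 12 of 12 kept, 8 above 0 on both arrays, and a median of 0.31. Among the 8, Mrc1 passed the filter only through the deficient channel. The sum of the macrophage markers was 31463 to 31841 in the deficient samples and 11253 to 28296 in the controls. Of it, Lyz2 alone gave 25054 and 28033 in the deficient samples and 23207 and 8756 in the controls. Of 9 dendritic cell markers 4 were kept, with a median of 0.13, and Itgax and Flt3 were not. Of 7 B cell markers 5 were kept, with a median of -0.21. Stromal markers had a median of 0.67 with 7 of 9 kept, and sums of 3128 to 8510 in the deficient samples and 1879 to 9131 in the controls. Their sum was lower in the deficient sample on replicate 1 and higher on replicate 2. The epithelial genes Epcam and Krt5 had ratios below 0 on both arrays, and Col1a1, Col3a1, Dcn and Pecam1 above 0. Of these, Col1a1 passed the filter only through the deficient channel. The 3 erythroid markers kept had a median of -0.38 on replicate 1 and of 2.26 on replicate 2. Their sum was 71769 in the deficient sample against 127481 in the control on replicate 1, and 107936 against 20139 on replicate 2. The samples of both arrays thus differed in red cell transcripts, in opposite directions. The part of other cells in the ratios of the axis was not tested, and in bulk RNA more cells of a type and more RNA per cell cannot be told apart.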

How the data were processed

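The authors scanned the arrays with Agilent Feature Extraction 9.5.3.1, per the submitters' processing notes. RNA was amplified and labelled with commercial kits, per the labels' protocols. The deposited mean and local background signals are uncorrected intensity values, per the file headers. The processed signals, also deposited, are intensity values that the software corrected for background and dye, with substitute values for very dim spots. The deposited log ratio is log10 of red over green, and the deposited value table states no scale but equals it within 0.005, with a median of 0 on each array.

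Each array had 45018 spots, of which 108 and 116 flagged ones were left out. Mean signals were corrected by normexp on the local background (offset 50) and normalised by loess within each array, controls at weight 0, and spots of a probe were averaged (R 4.3.3, limma 3.58.1, statmod 1.5.0). A probe was kept if both arrays read it well above background in at least one genotype, which left 21538. The mean of 2 arrays was tested against 0 with limma (1 residual and 2.46 prior degrees of freedom) and adjusted by Benjamini-Hochberg over all kept probes at 0.05. The script was tested on simulated data. A gene is represented by its brightest kept probe.

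Named from each pathway list are the 2 genes with the highest and the 2 with the lowest mean ratio, and all 10 genes of the axis are named whatever their values. The members and lists were chosen with earlier results of these data known. Alternatives were median or running-median centring, processed signals, the value table, another background or offset, other filters and probe rules, separate channels with the array as a block, and each array alone.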

Additional observations from a re-analysis of the deposited data

How the results depend on the processing

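Of the 8 genes with a value, limma called 0 in the analysis reported, 4 under median centring, 4 in the fit of separate channels with the array as a replicate block, 2 with background from negative controls and 1 from processed signals. Of all 21538 probes, 350 were called with background from negative controls and 30 from processed signals. The calls of Il12rb2 and Il18r1 support no difference in themselves, since both passed the filter only through the deficient channel. Of 72 other pathway genes kept, 0 were called as reported, 11 under median centring (972 of all 21538 probes called), 11 with the replicate block (1231 probes called) and 1 with background from negative controls. Genes at least 2-fold changed on both arrays numbered 3, and 1 when all 4 signals of a probe had to exceed background, since Il18r1 and Il12rb2 then have no value. With 1 array left out, which leaves no test, that count ranged from 3 to 4, and 6 genes stayed above and 2 below 0. Ratios of the 8 genes kept their sign in all these settings. The processed signals and the value table gave 2 genes at least 2-fold changed, with Ifngr1 at 0.65 on replicate 1 of the processed signals. Running-median centring, chosen after seeing the data, also gave 2, as Ifngr1 then had a mean of 0.94. Signal over background limits what can be said of Il12rb2, Il18r1, Ifng and Il18rap.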

Other observations

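Genes beside Il18r1 and Il12rb2 on the chromosome, in RefSeq order, were read on the same arrays. Il18r1 lies between Il1rl1 and Il18rap, neither of which was kept. The nearest kept gene of the same receptor cluster, Il1rl2, which encodes a receptor chain for IL-36, had ratios of -0.25 and -0.31 on the 2 arrays, opposite in sign to Il18r1. Il12rb2 lies between Serbp1, with ratios of 0.23 and -0.20, and Il23r, which encodes the IL-23 receptor chain and was not kept. Farther out, Gadd45a had -0.31 and -0.11, Gng12 0.06 and -0.02, and Rpia -0.38 and -0.04. These genes were looked up after the values of Il18r1 and Il12rb2 were seen, and the differences were not tested.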
